A study of Mus musculus with 238 samples.

Results

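The genes described here carry the dopamine signal in the brain: the dopamine receptors Drd1, Drd2 and Drd3, the adenosine receptor Adora2a, the signalling proteins Ppp1r1b and Rgs9, and the dopamine transporter Slc6a3. They were chosen by name, and all 7 are among the 21076 genes of the count table. Their RNA was followed through 15 brain regions and liver of C57BL/6JN mice aged 19 months. In the diet experiment 9 females were either fed freely (AL, ad libitum, 4 mice, numbers 63, 66, 68 and 69) or put on dietary restriction (aDR, 5 mice, numbers 61, 62, 64, 65 and 67; their liver libraries are labelled DR). In the plasma experiment 7 males were injected behind the eye with plasma of young mice (YMP, 3 mice, numbers 73, 77 and 81) or with phosphate-buffered saline (PBS, 4 mice, numbers 72, 76, 80 and 84). Sex and experiment coincide and cannot be told apart. The feeding schedule, the plasma dose and the time between the last treatment and sampling are not given in the sources used here.

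Dopamine is made by neurons of the midbrain and released mainly in the striatum, whose largest part in the mouse is the caudate putamen. The neurons that receive it there are medium spiny neurons, which form a direct and an indirect output pathway. Cells of the direct pathway carry the D1 receptor (Drd1), which raises cyclic AMP, and cells of the indirect pathway carry the D2 receptor (Drd2), which lowers it, together with an adenosine receptor (Adora2a), which raises it. Ppp1r1b encodes DARPP-32, a protein that turns the cyclic AMP signal into inhibition of a phosphatase and is abundant in both kinds of cell. Rgs9 speeds the switching off of G proteins downstream of these receptors. Slc6a3 encodes the transporter that takes dopamine back up into the neurons that release it, so its RNA lies in the cell bodies of dopamine neurons and not in the striatum that they reach. Drd3, a receptor of the D2 family, is known mainly from the ventral striatum and the islands of Calleja.

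Libraries were made from homogenised tissue, 229 from brain and 9 from liver, with totals of 605614 to 32410417 counts and a median of 8444258, and 6 were under 2000000. Most brain comparisons set 5 restricted against 4 freely fed mice, or 3 YMP against 4 PBS mice, and corpus callosum had the fewest, with 4 against 3 and 2 against 3. Levels below are CPM, the gene's counts in each 1000000 counts of the library. The tissue is bulk, so fewer cells of a type and less RNA per cell cannot be told apart. The region labels were checked on marker genes, and 3 sets of libraries stood apart. Those of corpus callosum, a white matter tract, held 2419 to 6706 CPM of 15 medium spiny neuron markers in sum (none of them a gene described here), against 4729 to 8491 CPM in caudate putamen and 639 to 767 CPM in motor cortex. Choroid plexus markers were present in some libraries of corpus callosum, SVZ (subventricular zone, in the wall of the lateral ventricle next to the striatum) and caudate putamen. In SVZ the sum of the 8 choroid plexus markers was 2820 to 19432 CPM in PBS and 27.8 to 53.4 CPM in YMP libraries. The pons libraries differed in markers of midbrain dopamine neurons and 1 of them held pituitary RNA, as described with Slc6a3.

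In the GRCm38 build the GENCODE M21 annotation places Adora2a at chr10:75316877-75334784 (plus strand), Drd1 at chr13:54051183-54055705 (minus), Drd2 at chr9:49340627-49408177 (plus), Drd3 at chr16:43754026-43822932 (plus), Ppp1r1b at chr11:98348404-98357796 (plus), Rgs9 at chr11:109225355-109298129 (minus) and Slc6a3 at chr13:73536747-73578672 (plus). The libraries carry no strand, and the antisense transcript 1700003D09Rik overlaps Ppp1r1b, so reads from the 2 cannot be told apart. The miRNA gene Gm25996 lies within Drd3.

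Upstream sequences are shown for genes whose levels moved together across regions (Drd1, Drd2 and Rgs9), with Slc6a3, which did not, for comparison. The set of RefSeq windows used here (GRCm38.p6) had entries for 5 of the 7 genes. It had none for Adora2a and Ppp1r1b, whose levels also moved with those of Drd1, Drd2 and Rgs9. From the entries, 2 start sites inside an annotated gene were left out. The start site of Drd1 also lies just inside the annotated gene, but its window lies outside and is shown. Each stretch has 200 bases, written 5′ to 3′ in the direction of the gene. It covers the bases from 250 to 51 before the start site. Motifs found on either strand are in capitals. The letters searched were TATAAA for the TATA box. For the GC box they were GGGCGG, and for the E-box of this kind they were CACGTG. The cyclic AMP response element was searched as TGACGTCA and the Nr4a response element as AAAGGTCA. The Pitx site was searched as TAATCC.
Drd1 (chr13:54055709-54055908, minus strand): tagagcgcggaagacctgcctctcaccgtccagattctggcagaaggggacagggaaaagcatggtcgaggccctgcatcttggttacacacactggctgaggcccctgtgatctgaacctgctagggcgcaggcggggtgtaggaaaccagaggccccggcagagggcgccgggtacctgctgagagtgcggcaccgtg
Drd2 (chr9:49340153-49340352, plus strand): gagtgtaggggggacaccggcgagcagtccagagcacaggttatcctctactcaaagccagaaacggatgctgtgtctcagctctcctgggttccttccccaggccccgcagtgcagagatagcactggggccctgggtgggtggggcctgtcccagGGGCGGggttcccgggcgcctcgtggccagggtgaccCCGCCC
Rgs9 (chr11:109298232-109298431, minus strand): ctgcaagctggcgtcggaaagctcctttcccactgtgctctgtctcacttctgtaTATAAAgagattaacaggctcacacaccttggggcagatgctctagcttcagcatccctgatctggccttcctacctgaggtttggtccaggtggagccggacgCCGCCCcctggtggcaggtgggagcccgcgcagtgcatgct
Slc6a3 (chr13:73536497-73536696, plus strand): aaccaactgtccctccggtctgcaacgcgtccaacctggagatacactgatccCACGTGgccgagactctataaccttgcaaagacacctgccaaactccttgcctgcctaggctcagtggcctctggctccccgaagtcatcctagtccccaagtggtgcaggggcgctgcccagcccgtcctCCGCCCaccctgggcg

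The Drd2 stretch holds the GC box on both strands, at positions 158 and 195 counted from its 5′ end. That of Rgs9 holds the letters of the TATA box at 56 and of the GC box at 160. That of Slc6a3 holds the E-box at 54 and a GC box at 185, and that of Drd1 none of the 6 motifs. Among 32851 RefSeq windows of the same length, 24.6% hold the GC box, 9.14% the TATA box, 4.34% the E-box, 5.22% the Pitx site, 1.08% the Nr4a response element and 0.828% the cyclic AMP response element. None of the last 3 was found in these 4 windows. Base composition was 63.5% G and C for Drd1, 67.5% for Drd2, 58.5% for Rgs9 and 62.5% for Slc6a3, against a median of 51.5%. These matches are descriptions of the letters and no test of binding. The windows end 51 bases before the start site, so a motif nearer to it was not searched for.

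**Figure D1:**
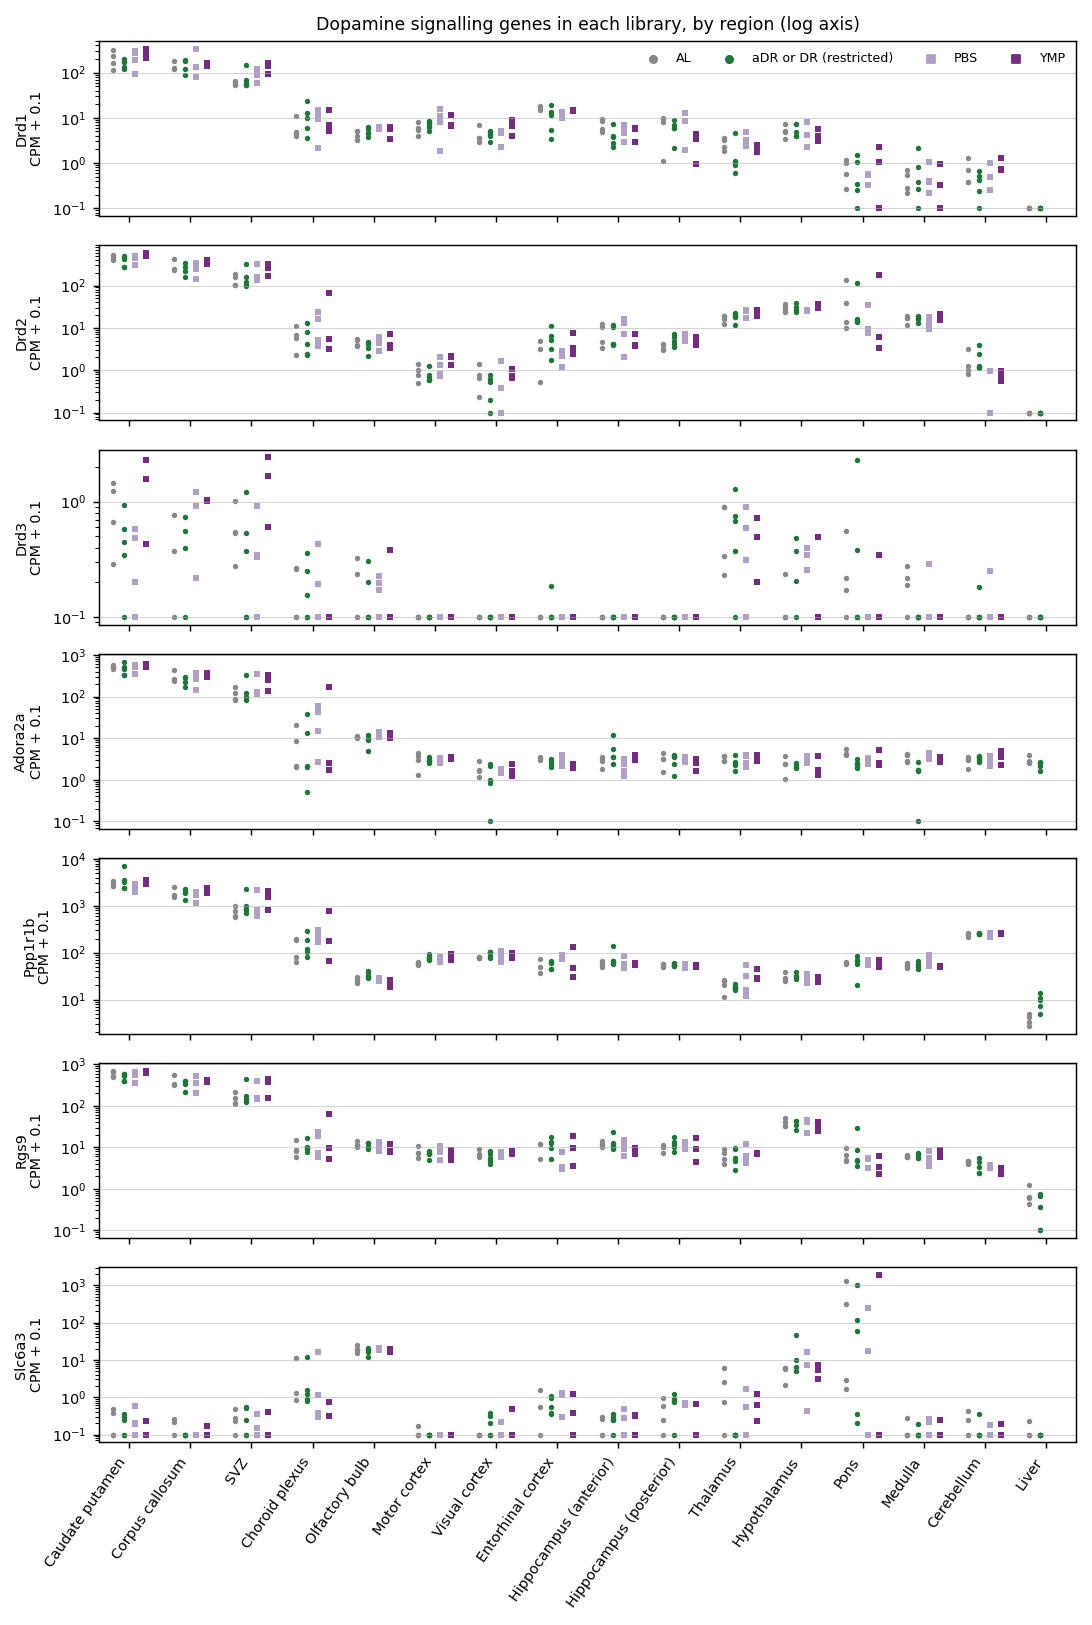
Level of each gene in every library (CPM + 0.1, log axis) by region, with 1 point per library. Grey circles are AL, green circles aDR or DR, light purple squares PBS and dark purple squares YMP. Drd1, Drd2, Adora2a, Ppp1r1b and Rgs9 are highest in caudate putamen, corpus callosum and SVZ, and Slc6a3 in olfactory bulb and some pons libraries.

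Where each gene is expressed was asked in the control mice alone. Drd1, Drd2, Adora2a, Ppp1r1b and Rgs9 were highest in caudate putamen, followed by corpus callosum and SVZ, in AL females. In PBS males the order of medians was the same for these 5 genes. Counted over the 14 other regions and the 6 genes that passed the filter on low counts, 65 of 84 contrasts were called higher in caudate putamen in AL and 65 of 84 in PBS mice (edgeR quasi-likelihood test, adjusted p under 0.05 over all genes of the contrast). Among all genes 24.6% of contrasts were called higher in AL and 20.1% in PBS. The same 65 were called in both groups: each of the 5 genes against every region but corpus callosum. Only 4 of the 84 contrasts were called lower in each control group, where all genes gave 25.7% in AL and 22.7% in PBS mice, and all of them were contrasts of Slc6a3.

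Drd1, the D1 receptor, had 235, 114, 315 and 161 CPM in caudate putamen of AL mice 63, 66, 68 and 69, and 187, 92.1, 303 and 274 CPM in PBS mice 72, 76, 80 and 84. In corpus callosum it ran from 121 to 184 CPM in AL and from 81.6 to 337 CPM in PBS libraries, overlapping caudate putamen in both. SVZ followed with 52.4 to 65.4 CPM in AL mice, below every corpus callosum library of that group, and with 58.6 to 120 CPM in PBS mice. The log2 difference of caudate putamen over SVZ was 1.95 (SE 0.27, edgeR adjusted p = 7.38e-08) in AL and 1.49 (SE 0.43, edgeR adjusted p = 0.00683) in PBS mice. Entorhinal cortex came next, with 14.7 to 18.4 CPM in AL, and all other regions were at 10.9 CPM or lower there. In PBS mice it had 9.83 to 13.1 CPM and did not stand apart. Choroid plexus (2.07 to 14.6 CPM), motor cortex (1.76 to 15.3 CPM) and posterior hippocampus (1.86 to 12.8 CPM) overlapped with it. Cerebellum, pons and medulla were lowest in AL, with medians of 0.435, 0.687 and 0.315 CPM, and their ranges overlapped.

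Drd2, the D2 receptor, was more even among the caudate putamen libraries than Drd1. It had 484, 453, 532 and 407 CPM in AL mice 63, 66, 68 and 69, and 493, 311, 445 and 487 CPM in PBS mice 72, 76, 80 and 84. Corpus callosum had 228 to 424 CPM and SVZ 101 to 190 CPM in AL mice, and the contrast of caudate putamen with SVZ was 1.88 on the log2 scale (SE 0.38, edgeR adjusted p = 6.52e-05). With these 3 regions set aside, hypothalamus had the highest median of Drd2 in both control groups but did not stand apart. It had 23.4 to 35.8 CPM in AL and 24.5 to 25.9 CPM in PBS mice. Pons overlapped with it, reaching 137 CPM in AL and 34.1 CPM in PBS mice. In PBS mice thalamus overlapped with it as well, at 17.43 to 25.98 CPM. Thalamus had 12.3 to 19.2 CPM and medulla 11.4 to 19.1 CPM in AL mice, so these 2 regions overlapped. Motor and visual cortex were at the low end, with at most 1.33 CPM in AL and 2.0 CPM in PBS mice.

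Adora2a, the adenosine receptor, had 566, 509, 523 and 459 CPM in caudate putamen of AL mice 63, 66, 68 and 69, above all 3 corpus callosum libraries of that group (236 to 440 CPM). Its fall outside the striatum was steep. Olfactory bulb had 9.72 to 11.1 CPM in AL and 10.8 to 13.7 CPM in PBS mice, and the other regions were under 6 CPM in controls, apart from choroid plexus (1.89 to 20.4 CPM in AL and 2.61 to 58.1 CPM in PBS mice). The highest choroid plexus library was that of YMP mouse 77, with 168 CPM of Adora2a, 67.4 CPM of Drd2 and 773 CPM of Ppp1r1b. That library also had the highest sum of medium spiny neuron markers in choroid plexus, 1196 CPM against 521 to 793 CPM in the 15 others.

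Ppp1r1b, which encodes DARPP-32, was the most abundant of the 7 genes in caudate putamen, with 3327, 2673, 3131 and 2602 CPM in AL mice 63, 66, 68 and 69. Cerebellum held a narrow range of 218 to 257 CPM in AL and 214 to 258 CPM in PBS mice. It lay above every choroid plexus library in AL mice and overlapped choroid plexus in PBS mice (172 to 309 CPM). Motor cortex, visual cortex, hippocampus, pons and medulla had 47.9 to 82.0 CPM in AL mice, while thalamus had 11.1 to 25.6 CPM. No brain library was without a count of Ppp1r1b, and the lowest had 11.1 CPM.

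Rgs9, the G protein regulator, had 696, 517, 674 and 510 CPM in caudate putamen of AL mice 63, 66, 68 and 69. Hypothalamus was the 4th region in order in both control groups, at 32.0 to 50.4 CPM in AL and 22.2 to 45.3 CPM in PBS mice, and in AL mice its range lay above all regions below it, whose ranges began at 3.85 CPM and ended at 14.5 CPM. Corrected for exonic length, the levels in caudate putamen of AL mice were 1002 CPM per kb for Ppp1r1b, 184 for Drd2, 168 for Adora2a, 93.8 for Rgs9, 56.8 for Drd1 and 0.474 for Drd3. These levels per kb are means over 4 mice.

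Drd3, the D3 receptor, was close to the limit of detection. It had no count in 142 of 229 brain libraries and at most 3 counts in 194, and its highest level was 2.32 CPM, in SVZ of YMP mouse 77. It did not pass the filter on low counts in any test of 1 treatment within a region, and no contrast between regions was tested for it. In AL mice caudate putamen had 1.35, 0.187, 1.14 and 0.567 CPM (mice 63, 66, 68 and 69), and thalamus and SVZ overlapped with it. Both parts of the hippocampus, motor cortex and visual cortex had no count in any library of either experiment. Over the summed counts of all libraries of a region, a count of 0 allows up to 0.0251 CPM in anterior hippocampus, 0.0222 CPM in posterior hippocampus, 0.0222 CPM in motor cortex and 0.0248 CPM in visual cortex (3 counts, counting error only). Liver had no count of Drd1, Drd2 or Drd3 in 9 libraries, which allows up to 0.0417 CPM of each.

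Slc6a3, the dopamine transporter, was almost absent from the striatum, with at most 0.375 CPM in caudate putamen of AL and 0.485 CPM in that of PBS mice. Its steadiest level was in olfactory bulb, which has its own dopamine neurons: 18.1, 19.5, 15.6 and 24.9 CPM in AL mice 63, 66, 68 and 69, and 18.3, 18.2, 20.5 and 19.8 CPM in PBS mice 72, 76, 80 and 84. Olfactory bulb libraries also had 213 to 403 CPM of Th, the enzyme that limits dopamine synthesis, and at most 0.103 CPM of Pitx3, a transcription factor of midbrain dopamine neurons. Caudate putamen was called lower than olfactory bulb for Slc6a3 in AL (log2 difference -6.50, SE 1.46, edgeR adjusted p = 1.50e-04) and in PBS mice (-6.94, SE 1.45, edgeR adjusted p = 9.41e-05). It was also called lower than choroid plexus, hypothalamus and pons in both, with edgeR adjusted p between 1.43e-09 and 0.0213. The fitted differences rest on a few counts in caudate putamen. The other regions were uneven as well. In PBS mice choroid plexus had 15.9 CPM in mouse 72 and 0.188, 0.268 and 1.07 CPM in mice 76, 80 and 84. Hypothalamus ran from 0.336 to 16.2 CPM in that group.

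Pons was the region in which Slc6a3 differed most between libraries. The dopamine neurons that make it lie in the midbrain, just in front of the pons. The libraries had 1.59, 2.73, 1288 and 322 CPM in AL mice 63, 66, 68 and 69, and 121, 0.10, 1039, 59.1 and 0.245 CPM in aDR mice 61, 62, 64, 65 and 67. They had 0, 17.6 and 247 CPM in PBS mice 76, 80 and 84, and 0, 1885 and 0 CPM in YMP mice 73, 77 and 81. High and low libraries occurred in every group. Th moved with Slc6a3, from 0 CPM in aDR mouse 67 to 1567 CPM in YMP mouse 77, and so did Pitx3, at 20.7 CPM in AL mouse 68, 20.5 CPM in YMP mouse 77 and 13.5 CPM in aDR mouse 64, against at most 4.44 CPM in the other 12.

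Drd2, which dopamine neurons carry as an autoreceptor, was high in the same 3 pons libraries: 137 CPM in AL mouse 68, 117 CPM in aDR mouse 64 and 181 CPM in YMP mouse 77. AL mouse 69 had 37.7 CPM and PBS mouse 84 had 34.1 CPM, and the other 10 pons libraries lay between 3.31 and 15.9 CPM. Adora2a had 5.28 CPM in AL mouse 68 and 4.97 CPM in YMP mouse 77, the 2 highest of the 15 pons libraries, and 1.85 CPM in aDR mouse 64, the lowest of them. The sum of 10 midbrain dopamine neuron markers, Slc6a3 among them, was 192 to 5308 CPM over the pons libraries. The part of these cells in the differences between libraries was not tested. The library of aDR mouse 67 stood apart in another way, with 187110 CPM of 7 pituitary markers against at most 1869 CPM in the others, and had the highest Rgs9 (29.2 CPM against 2.18 to 9.51 CPM in the others) and Drd3 (2.21 CPM) of the pons.

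**Figure D2:**
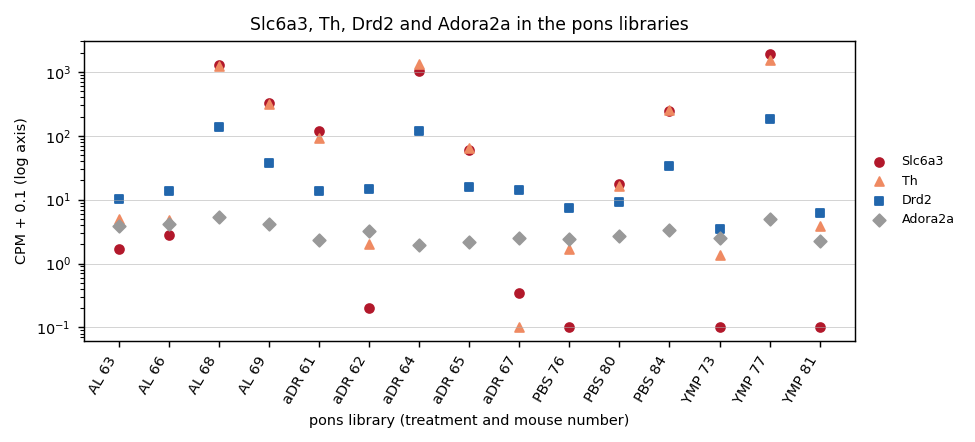
Slc6a3, Th, Drd2 and Adora2a in the 15 pons libraries (CPM + 0.1, log axis), with 1 column per library named by treatment and mouse number. Slc6a3 and Th rise and fall together, Drd2 stands above 100 CPM in AL 68, aDR 64 and YMP 77, and Adora2a stays between 1.85 and 5.28 CPM.

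Corpus callosum and SVZ lie against the striatum, and in them the medium spiny neuron genes varied from library to library. In SVZ the libraries of aDR mouse 64 and PBS mouse 72 stood above the others of their group. Adora2a had 327 CPM in the first and 345 CPM in the second, against 80.4 to 121 CPM and 114 to 127 CPM in the rest of these groups. The sum of the 15 medium spiny neuron markers was 5034 and 4673 CPM in these 2 libraries, against 1886 to 2838 CPM and 2230 to 2430 CPM in the rest. In caudate putamen the libraries of aDR mice 61 and 62 and PBS mouse 76 had the lowest marker sums (5284, 5186 and 4729 CPM) and the lowest Drd2 (272, 280 and 311 CPM). They held 500, 1298 and 3176 CPM of Ttr, a choroid plexus gene, while 12 of the 13 other caudate putamen libraries were at 4.24 CPM of Ttr or lower and AL mouse 69 had 482 CPM. Whether the amount of striatal tissue in a library sets these levels was not tested.

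No gene of the 5 was called different between caudate putamen and corpus callosum. The log2 difference ranged from 0.53 for Drd1 to 0.73 for Adora2a in AL mice, with edgeR adjusted p between 0.0609 and 0.323. In PBS mice it ranged from 0.28 for Drd1 to 0.97 for Adora2a, with edgeR adjusted p between 0.119 and 0.780. All genes gave 2.60% called higher in caudate putamen in AL and 3.47% in PBS mice in this contrast. Of the 15 medium spiny neuron markers, 6 were called higher in caudate putamen than in corpus callosum in AL and 3 in PBS mice.

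**Figure D3:**
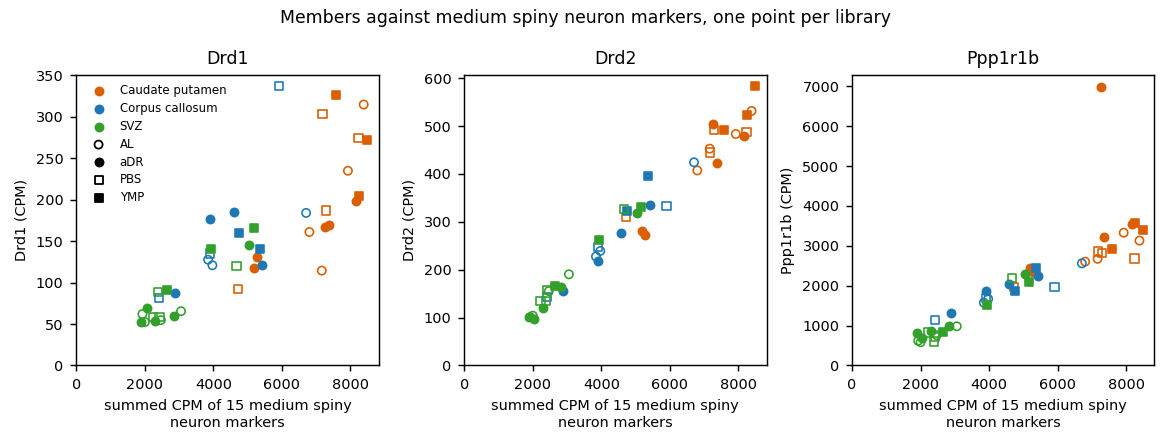
Drd1, Drd2 and Ppp1r1b (CPM, y axes) against the summed CPM of 15 medium spiny neuron markers (x axes) in libraries of caudate putamen (orange), corpus callosum (blue) and SVZ (green). Circles are the diet and squares the plasma experiment, and filled symbols are the treated mice. Drd2 and the markers rise together, and Ppp1r1b of 6974 CPM in aDR mouse 64 lies apart from the other caudate putamen libraries.

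Genes that work with these receptors shared the pattern in part. Of 14 genes of striatal cyclic AMP signalling, 12 were called higher and 1 lower in caudate putamen than in SVZ in AL mice (median log2 difference 1.42), and 11 and 1 in PBS mice (1.03). All genes gave 17.9% called higher in AL and 11.8% in PBS mice in that contrast, with medians of -0.0094 and 0. Against motor cortex, 12 of the 14 were called higher in AL and 13 in PBS mice, where all genes gave 27.7% and 22.0%. Of 8 genes of the Rgs9 complex and related regulators, 7 were called higher than in SVZ in each control group. The 6 indirect pathway markers had median log2 differences over SVZ of 1.94 in AL and 1.19 in PBS mice, and the 7 direct pathway markers 0.70 and 0.42. The 7 genes of dopamine synthesis, storage and breakdown had 2 called higher and 2 lower than in SVZ in AL mice (median -0.063).

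Over the 30 control groups (15 regions in 2 experiments), the gene with the level most like that of Drd1 was Bcr (Pearson r 0.96 on mean log2 CPM, 15604 genes searched), followed by Gpr6 and Tmem158 (0.96 and 0.95). For Drd2 they were Tdrd7, Pard3 and Pnp2 (0.94, 0.94 and 0.93). For Adora2a they were Olfr1393, Clec12a and Sh3rf2 (0.97, 0.97 and 0.96), for Rgs9 Olfr1393, Adcy5 and Pik3r4 (0.96, 0.96 and 0.95), and for Ppp1r1b Arhgef39, Strn and Sgk3 (0.93, 0.93 and 0.91). Adcy5 encodes the main adenylyl cyclase of the striatum, and Gpr6 is a marker of the indirect pathway. Among themselves the 5 striatal genes had r from 0.61 (Drd2 and Ppp1r1b) to 0.92 (Adora2a and Rgs9). Slc6a3 had r from -0.44 to 0.018 with them, and its most similar genes reached lower values (Smoc1 0.84, Hcn3 0.81 and Adgrg1 0.80). These correlations are descriptions, and the points of all genes share the same libraries.

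The effect of each treatment was asked within each region. Dietary restriction gave 1 call among the 73 tests of a gene in a brain region that passed the filter on low counts (of 105 possible), where all genes gave 0.0525%. Plasma gave 0 calls among 73 tests, where all genes gave 0.0127%. At an unadjusted p under 0.05, edgeR had 8 of the 73 tests of the diet and 4 of the 73 of the plasma experiment. Over all genes 12831 of 205693 tests with diet and 12561 of 205500 with plasma were under it. The 1 call was Ppp1r1b in motor cortex. For the other genes neither treatment was shown to change the level in any brain region.

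In motor cortex Ppp1r1b had 79.5, 92.1, 70.4, 73.7 and 79.1 CPM in aDR mice 61, 62, 64, 65 and 67, and 64.7, 53.3, 60.5 and 58.3 CPM in AL mice 63, 66, 68 and 69. Every restricted mouse was above every freely fed mouse. Among genes with at least 15 counts in that region, 3.58% had groups that did not overlap. Restricted mice averaged 79.0 ± 8.27 CPM (SD, n = 5) and freely fed mice 59.2 ± 4.73 CPM (SD, n = 4). On the log2 scale Ppp1r1b was higher by 0.41 in restricted mice (SE 0.078, adjusted p = 0.0342 with edgeR). In this region 0.251% of all genes were called. The adjusted p ran from 0.00659 to 0.141 when 1 mouse was left out, and the call was lost without AL mouse 66, 68 or 69 or without aDR mouse 61, 62 or 67, and when all regions were fitted together (adjusted p = 1.0). Medium spiny neuron markers summed to 702 to 734 CPM in AL and 702 to 767 CPM in aDR mice, and cortical pyramidal neuron markers to 912 to 1068 CPM and 919 to 1041 CPM. Oligodendrocyte markers summed to 2806 to 3814 CPM in AL and 3047 to 5663 CPM in aDR mice, and their part in the result was not tested.

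The diet estimate of Ppp1r1b was above 0 in 13 of 15 brain regions, motor cortex among them, and these regions came from the same mice. Outside motor cortex Ppp1r1b was not called with diet. In olfactory bulb it had 28.6, 37.0, 29.9, 40.4 and 32.0 CPM in aDR mice and 29.7, 24.3, 26.2 and 22.4 CPM in AL mice, a log2 difference of 0.35 (SE 0.11, edgeR adjusted p = 0.221). In visual cortex the difference was 0.25 (SE 0.080, edgeR adjusted p = 0.306). In liver Ppp1r1b had 7.31, 13.8, 9.63, 10.6 and 4.91 CPM in DR mice 61, 62, 64, 65 and 67 and 4.22, 3.14, 2.66 and 4.78 CPM in AL mice 63, 66, 68 and 69. The groups did not overlap there (4.11% of genes), and the log2 difference of 1.32 (SE 0.29) missed the threshold with edgeR (adjusted p = 0.101; 0.220% of liver genes were called). DESeq2 gave an adjusted p of 0.00437 for it.

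**Figure D4:**
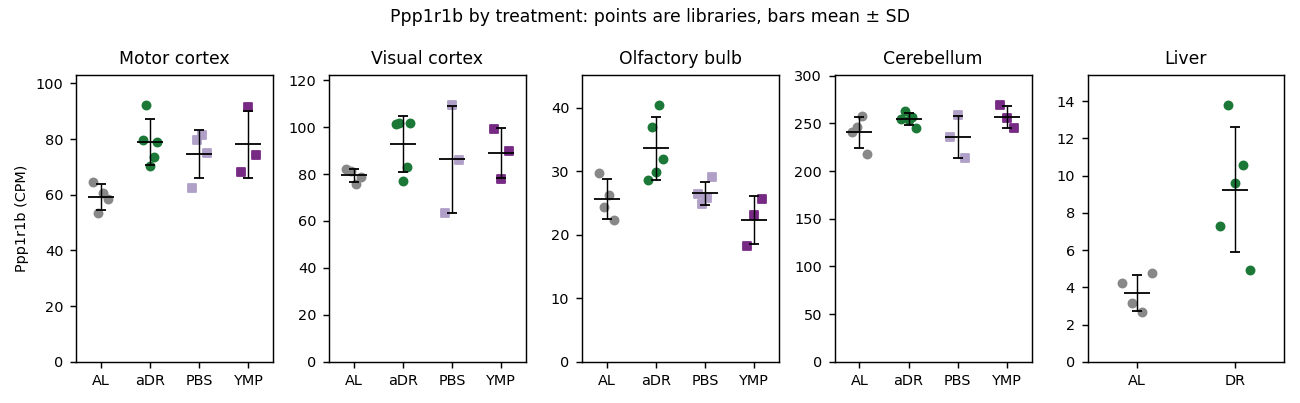
Ppp1r1b (CPM) by treatment in motor cortex, visual cortex, olfactory bulb, cerebellum and liver, with points for libraries and bars for the mean ± SD. Each panel has its own axis from 0. In motor cortex the 5 aDR libraries lie between 70.4 and 92.1 CPM and the 4 AL libraries between 53.3 and 64.7 CPM, while PBS and YMP overlap.

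In caudate putamen restriction was not shown to change any of the 5 genes. Drd1 had 131, 117, 167, 169 and 198 CPM in aDR mice 61, 62, 64, 65 and 67, within the range of AL mice, with a log2 difference of -0.34 (SE 0.28, edgeR adjusted p = 0.685). Drd2 had 272, 280, 505, 423 and 479 CPM in the same mice, with a difference of -0.19 (SE 0.23, adjusted p = 0.768 with edgeR). The estimates were -0.081 for Adora2a and -0.19 for Rgs9. Ppp1r1b had 2345, 2444, 6974, 3215 and 3539 CPM, and its difference of 0.43 (SE 0.34, edgeR adjusted p = 0.680) was -0.0077 without aDR mouse 64. All genes gave 0.0146% called in this region.

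In SVZ all 5 estimates were above 0 with restriction, from 0.25 for Drd2 to 0.65 for Ppp1r1b (SE 0.35, edgeR adjusted p = 0.981). The median over the 15 medium spiny neuron markers was 0.32, against 0.0086 over all genes tested. Without the library of aDR mouse 64 the differences were -0.17 for Drd2, -0.20 for Adora2a, -0.037 for Rgs9, 0.018 for Drd1 and 0.21 for Ppp1r1b. In corpus callosum the 5 estimates lay between -0.37 and -0.016. In SVZ the choroid plexus markers summed to 29.1 to 9891 CPM in aDR and 62.2 to 3283 CPM in AL libraries. The estimate was above 0 for 8 of 8 of these markers (median 0.99, 0 called by edgeR), and their part in the differences was not tested. All genes gave 0.0212% called in SVZ and 0.0215% in corpus callosum.

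Plasma gave estimates above 0 for all 5 genes in caudate putamen and in SVZ, none of them called. In caudate putamen Ppp1r1b had 3407, 3560 and 2910 CPM in YMP mice 73, 77 and 81 and 2820, 1969, 2859 and 2685 CPM in PBS mice 72, 76, 80 and 84. The groups did not overlap, as for 11.6% of genes there, and the log2 difference was 0.35 (SE 0.14, edgeR adjusted p = 0.481). Drd2 had 583, 524 and 492 CPM in the YMP mice, with a difference of 0.29 (SE 0.16, edgeR adjusted p = 0.540). The medium spiny neuron markers summed to 7588 to 8491 CPM in YMP and 4729 to 8237 CPM in PBS mice, and oligodendrocyte markers to 9104 to 14475 CPM and 13959 to 34345 CPM. With plasma the estimate was above 0 for 0 of 6 oligodendrocyte markers (median log2 difference -0.93, all 6 at an unadjusted p under 0.05 and 0 called by edgeR) and for 1 of 6 thalamic neuron markers (median -0.68). The part of these cells in these differences was not tested.

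In SVZ Drd1 had 140, 165 and 90.4 CPM in YMP mice 73, 77 and 81 and 120, 58.6, 58.9 and 88.4 CPM in PBS mice 72, 76, 80 and 84. The log2 difference of 0.66 (SE 0.32, edgeR adjusted p = 0.425) was the largest of the 5 genes there. Medium spiny neuron markers summed to 2653 to 5173 CPM in YMP and 2230 to 4673 CPM in PBS mice. Choroid plexus markers separated the 2 groups in SVZ, as given above, and the 7 cortical pyramidal neuron markers summed to 145 to 262 CPM in YMP and 20.3 to 63.2 CPM in PBS mice. Neither part in the differences was tested.

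**Figure D5:**
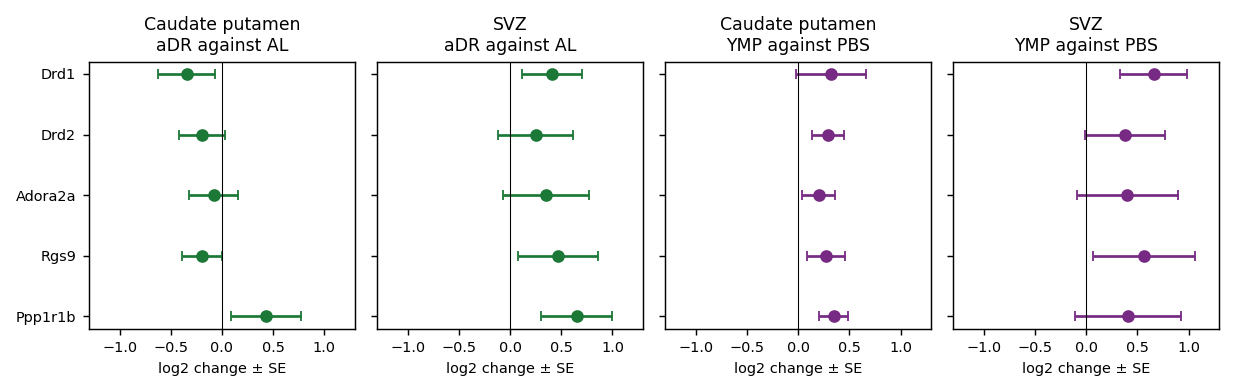
Log2 change with its SE (x axes) of the 5 striatal genes in caudate putamen and SVZ, for aDR against AL (green) and YMP against PBS (purple), from edgeR. The vertical line marks no change. All estimates lie between -0.34 and 0.66 and none was called.

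The other tests at an unadjusted p under 0.05 were not called either. Adora2a in pons had 2.28, 3.11, 1.85, 2.09 and 2.45 CPM in aDR mice 61, 62, 64, 65 and 67 and 3.81, 3.99, 5.28 and 4.09 CPM in AL mice, without overlap (1.71% of genes), with a log2 difference of -0.78 (SE 0.22, edgeR adjusted p = 0.997). In medulla Adora2a had 1.54, 0, 1.63, 1.57 and 2.56 CPM in the same aDR mice and 2.57 to 4.04 CPM in AL mice, without overlap (2.35% of genes), a difference of -0.88 (SE 0.31, edgeR adjusted p = 0.669, where 0.00714% of genes were called). The library at 0 was 1 of the 6 under 2000000 counts. Slc6a3 in hypothalamus had 45.4, 4.89, 9.83 and 6.47 CPM in aDR mice 62, 64, 65 and 67 and 6.05, 6.13, 2.05 and 5.62 CPM in AL mice 63, 66, 68 and 69. The difference was 1.76 (SE 0.70, edgeR adjusted p = 0.986), and Pitx3, at 1.67 CPM in aDR mouse 62, was at most 0.366 CPM in the other libraries of the diet experiment.

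Drd2 in hypothalamus had 32.2, 29.7 and 35.5 CPM in YMP mice 73, 77 and 81 and 25.9, 25.8 and 24.5 CPM in PBS mice 72, 80 and 84. The groups did not overlap (9.44% of genes), with a difference of 0.36 (SE 0.10, edgeR adjusted p = 0.998). Ppp1r1b in medulla was at 49.9 to 52.6 CPM in YMP and 53.0 to 87.3 CPM in PBS mice, without overlap (8.01% of genes), a difference of -0.52 (SE 0.14, edgeR adjusted p = 0.438). Drd1 in anterior hippocampus (-0.77) and Drd2 in posterior hippocampus (0.57) with diet, and Drd2 in entorhinal cortex (1.04) with plasma, had edgeR adjusted p of 0.910 or higher.

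Whether a change was shared by all brain regions was tested with 1 value per mouse. None of 6 genes was called with diet, where limma called 0.922% of all genes, and none of 7 with plasma, where it called 0%. None of these genes had an unadjusted p under 0.05 in that test. The estimates with diet were 0.18 for Ppp1r1b (SE 0.088, limma adjusted p = 0.354), -0.25 for Adora2a, -0.22 for Slc6a3, -0.15 for Drd1, -0.028 for Drd2 and 0.0050 for Rgs9. With plasma Rgs9 had the smallest p, at a difference of 0.11 (SE 0.051, limma adjusted p = 0.645). Drd2 had 0.30 and Drd3 0.20, and without YMP mouse 77 these were 0.092 and 0.059, and Rgs9 had 0.057.

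No gene of the 7 was called for an effect of plasma that differed between regions (edgeR F test). With diet Drd3 did not pass the filter on low counts, and none of the others was called. All genes gave 0.0128% with diet and 0.824% with plasma. The smallest p was that of Drd3 with plasma (adjusted p = 0.818 with edgeR). The effect of diet was not called different from that of plasma for any of these genes in any region where it was tested. All genes gave 0.0118%. With both experiments in 1 fit Drd3 passed the filter on low counts in caudate putamen and SVZ. In caudate putamen it had 0.326, 1.48 and 2.22 CPM in YMP mice and 0, 0.101, 0.383 and 0.485 CPM in PBS mice in order of level, and the groups overlapped. The effect of diet minus that of plasma was -3.60 there (SE 1.16, edgeR adjusted p = 0.365) and -2.70 in SVZ (SE 1.20, edgeR adjusted p = 0.334), where YMP mice 73, 77 and 81 had 0.506, 2.32 and 1.58 CPM and PBS mice 0 to 0.814 CPM. The ratio of Drd1 to Drd2 and that of Adora2a to Drd2 were compared within libraries of caudate putamen and SVZ in 8 exact two-sided permutation tests. The log2 differences between treated and control mice lay between -0.087 and 0.25, and the smallest adjusted p of the exact tests was 0.849. The smallest p the design allows is 0.0159 with diet and 0.0571 with plasma, so the plasma tests could not pass. After adjustment over the 8 tests, a diet test alone at its smallest p could not pass either.

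The other genes of the pathway were examined in the same way. Of 210 tests of 14 cyclic AMP signalling genes in the brain regions, 0 were called by edgeR with either treatment, with 12 (diet) and 15 (plasma) at an unadjusted p under 0.05. The lists of direct and indirect pathway markers, medium spiny neuron markers, Rgs9 complex genes and dopamine synthesis genes had 0 edgeR calls within regions. Tests at an unadjusted edgeR p under 0.05 are given here with diet first and plasma second. Rgs9 complex genes had 6 of 117 and 18 of 117, and dopamine synthesis genes 4 of 102 and 16 of 104. Direct pathway markers had 8 of 90 and 10 of 89, and indirect pathway markers 6 of 69 and 9 of 71. Medium spiny neuron markers had 11 of 213 and 18 of 212. Over all genes and brain regions, 12831 of 205693 tests with diet and 12561 of 205500 with plasma were under that level. With plasma in caudate putamen, 13 of 14 cyclic AMP signalling genes, 7 of 7 direct pathway markers and 14 of 15 medium spiny neuron markers had estimates above 0, with medians of 0.26, 0.27 and 0.25, against -0.0086 over all genes tested. With diet in caudate putamen the same lists had 4, 3 and 4 estimates above 0. Their medians were -0.13, -0.11 and -0.13, against -0.00075 over all genes. Oligodendrocyte markers in caudate putamen had 0 of 6 estimates above 0 with plasma (median -0.93) and 6 of 6 with diet (median 0.11). The part of these cells in the list medians was not tested.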

How the data were processed

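RNA was sequenced from homogenised tissue with Smart-Seq2 and Nextera XT libraries, without strand, per the labels' protocols. Per the submitters' processing notes reads were trimmed with Trim Galore 0.3.7 and aligned to GRCm38 with STAR 2.5.3a, and DESeq2 is named. The counting program and annotation are not given in the sources used here. The authors deposited whole-number counts per gene for 238 libraries, with 0 columns left unused. Counts were tested with edgeR 4.0.16 (quasi-likelihood, TMM, filterByExpr with minimum counts of 10 and 15) under R 4.3.3, with Benjamini-Hochberg adjustment over all genes of a comparison and a threshold of 0.05. DESeq2 1.42.0 was an alternative. Changes across regions were tested with limma 3.58.1 on 1 value per mouse. That value was the coefficient of the mouse when log2 CPM, with a prior count of 2, was modelled by mouse and region together. Pathway and marker lists and the 7 genes were chosen with earlier results of these data known. From other lists, genes were to be named where called or with the smallest p, and for each of the 7 genes the 3 most similar genes. Genes of the lists named as examples of markers of another tissue (Ttr, Th, Pitx3) were chosen after values were seen. Mouse numbers mark the same animal across regions, and tests within a region or across regions used 1 value per mouse. Contrasts between regions and the test of effects that differed between regions counted libraries of a mouse as separate samples, with the mouse as a block in an alternative. Libraries of the same mouse had a mean correlation of deviations of 0.040 in AL (other mice -0.013) and 0.16 in PBS (-0.054). In simulated data, 84% of genes changed 2-fold in caudate putamen were recovered with the diet design (13722 genes) and 69% with the plasma design (13618 genes). The test of effects that differed between regions recovered 63% of 2-fold changes with diet (15591 genes) and 33% with plasma (15699 genes). Those changes were placed in SVZ and pons only. The simulated libraries were independent, all genes had the same fixed spread, and the changed genes were well counted. These shares therefore do not hold for genes near the limit of detection or with a larger spread. Alternatives covered the tool, filter, scaling, prior count, the block and each mouse left out.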

Additional observations from a re-analysis of the deposited data

Results flagged for a closer look

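Among 101 groups of 4 to 10 libraries, 14 had a library far from the rest of its group. Chance would give about 5.1 (1 in 20) in independent, normally distributed groups. The groups were taken from values reported here, and several of the 14 share a library. The counts of 14 and 5.1 therefore cannot be set against each other as a test.

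In SVZ the library of aDR mouse 64 had 145 CPM of Drd1 (others 52.0 to 68.8), 327 CPM of Adora2a (80.4 to 121), 2296 CPM of Ppp1r1b (695 to 990) and 440 CPM of Rgs9 (123 to 176). In SVZ the library of PBS mouse 72 had 326 CPM of Drd2 (others 135 to 158), 345 CPM of Adora2a (114 to 127), 2198 CPM of Ppp1r1b (602 to 825) and 410 CPM of Rgs9 (146 to 152). In caudate putamen Ppp1r1b was 6974 CPM in aDR mouse 64, against 2345 to 3539 CPM in the other 4, while its sum of medium spiny neuron markers, 7252 CPM, lay within the range of the group.

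In pons the library of aDR mouse 64 had 117 CPM of Drd2 (others 13.5 to 15.9) and 1039 CPM of Slc6a3 (0.10 to 121), and that of aDR mouse 67 had 29.2 CPM of Rgs9 (3.49 to 8.68). In hypothalamus Slc6a3 was 2.05 CPM in AL mouse 68 (others 5.62 to 6.13) and 45.4 CPM in aDR mouse 62 (4.89 to 9.83).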

How the results depend on the processing

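Of 779 alternative values for 66 results, 721 kept their direction and side of the threshold or, for 10 results that are counts, stayed near the main count. Apart from the counts, only Ppp1r1b in motor cortex was called in the main analysis, so the other results had no call to lose. That call held in 6 of 13 alternatives. In all, 19 results changed sign under at least 1 alternative. Where no library is named the cause was not tested. The single diet call within brain regions became 0 with all regions in 1 fit and ranged from 0 to 1 as mice were left out. DESeq2 made 1 call in liver. Rgs9 across regions with diet was -0.0023 without caudate putamen and SVZ and -0.014 without pons (an alternative chosen after seeing the data), and Ppp1r1b across regions with plasma was -0.059 without caudate putamen and SVZ. Leaving out 1 mouse moved log2 changes with diet in caudate putamen from -0.32 to 0.030 for Adora2a and from -0.0077 to 0.57 for Ppp1r1b. In SVZ the range was -0.17 to 0.45 for Drd2, -0.20 to 0.62 for Adora2a and -0.037 to 0.70 for Rgs9, and in corpus callosum -0.45 to 0.069 for Drd2. In pons the range with diet was -3.06 to 1.21 for Slc6a3 and -1.64 to 0.83 for Drd2. With plasma it was -11.86 to 6.42 for Slc6a3, a fitted value that depends on the prior count since the YMP libraries other than mouse 77 are at 0, and -2.22 to 3.00 for Drd2. Across regions the ranges with diet were -0.11 to 0.13 for Drd2 and -0.063 to 0.063 for Rgs9, and with plasma -0.062 to 0.25 for Drd1, -0.21 to 0.10 for Adora2a and -0.14 to 0.098 for Ppp1r1b. The Drd1 to Drd2 difference in caudate putamen ranged from -0.25 to 0.16 with diet and from -0.094 to 0.31 with plasma. That of Adora2a to Drd2 ranged from 0.044 to 0.17 in caudate putamen with diet (exact permutation p = 0.0286 without aDR mouse 67), from -0.0091 to 0.11 in SVZ with diet and from -0.013 to 0.16 there with plasma. Contrasts called higher in caudate putamen numbered 65 to 68 in AL and 63 to 65 in PBS mice. Low levels limit Drd3, and Slc6a3 outside a few regions, to a few counts.

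Each mouse had 1 treatment, so mice are not paired between treatments. With the mouse as a replicate block, 65 contrasts between regions were called higher in caudate putamen in each control group. None of the genes tested was then called across regions or for an effect that differed between regions. Of all genes, 130 were called for an effect of plasma that differed between regions, 147 with the block and 3 to 155 as 1 mouse was left out. With the block, Adora2a across regions with plasma was 0.18, and with no replicate block 0.13. With no replicate block, which counts the libraries of a mouse as independent, 1 gene was called across regions with diet, Ppp1r1b (0.19, limma adjusted p = 0.0339).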
